A study of Mus musculus with 8 samples.

Results

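Talins, kindlins and the adaptor proteins of focal adhesions were followed through 10 genes, Tln1, Tln2, Fermt1, Fermt2, Fermt3, Vcl, Pxn, Ilk, Tns1 and Tns3, out of 25247 genes in the count table. The genes were listed by name for their part in integrin activation and adhesion, with earlier results of these data known, and all 10 had a row. The data were bulk RNA sequencing libraries of Langerhans cells (epidermal dendritic cells) from mouse ear skin, sorted as live CD45+ Ly6G- CD103- MHCII+ CD24+ EpCAM+ cells. All mice were on the C57BL/6 background and were either wild type (WT) or Ezh2 knockout (KO, given as EZH2 -/-), with no treatment named and no age given. Ezh2 is the histone H3K27 methyltransferase of Polycomb repressive complex 2, and the question of the series was its part in the migration of these cells and in allergic skin inflammation. The labels name neither the deleted part of Ezh2 nor the cells it was deleted from. They also do not tie libraries to separate animals, so each p-value reflects only how far these libraries vary, which may be technical.

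The genotype of 4 of the 8 libraries was in dispute. Each library carries a code that stands in 1 title and in 1 description. The title and the description holding it named the same genotype for RMN030 and RMN031 (WT) and for RMN038 and RMN039 (KO). The title of a KO sample held RMN032 and RMN033, while these codes stood in the descriptions of WT samples. RMN036 and RMN037 stood in the titles of WT samples and in the descriptions of KO samples. Every comparison is therefore given for the 4 undisputed libraries (2 WT, 2 KO), for the title reading (4 and 4) and for the description reading (4 and 4), with none preferred. The codes also form 2 runs, earlier (030 to 033) and later (036 to 039), and the labels do not say what separates the runs. For the undisputed libraries and the description reading, genotype and code run cannot be told apart, whereas the title reading has 2 WT and 2 KO libraries in each run.

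Integrins are heterodimeric adhesion receptors that bind extracellular matrix or ligands on other cells. Talin binds the tail of the integrin beta subunit, switches the receptor to its high-affinity state and ties it to actin, and kindlins bind the same tail at a second site and assist. Vinculin, paxillin, integrin-linked kinase and tensins are recruited to the cluster and connect it to the cytoskeleton and to signalling. Leukocytes use talin 1 and kindlin-3 for firm adhesion and migration. Talin 1 is also known as a cytoplasmic partner and methylation substrate of Ezh2 in leukocytes.

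Library totals lay between 11051402 and 18966195 counts. Langerhans cell markers summed to between 79650 and 101000 CPM (counts per 1000000 counts of the library) over 12 genes, with only Cd1d1 at 0 in RMN032 and RMN036. Ezh2 itself was detected in all 8 libraries, at 10.5 to 22.4 CPM, and its log2 fold change (KO minus WT) was -0.66 in the undisputed libraries, -0.49 in the title reading and -0.15 in the description reading, none of which passed the test (edgeR adjusted p = 0.455, 0.998 and 0.869). Whether these reads come from outside the deleted part is not given, so the level does not check the labels. Keratinocyte markers summed to 17430 to 22350 CPM over the 17 of 18 listed genes in the table. The 16 T cell markers summed to 376 CPM in RMN030 and 365 in RMN031, with 0 of them at a count of 0. In the 6 other libraries they summed to 45.2 to 60.5 CPM, with 4 to 7 markers at 0 and Cd8b1 and Dntt at 0 in each. Blood and platelet markers summed to 126 to 232 CPM in the earlier run and to 584 to 1358 CPM in the later run, and mitochondrial transcripts took 1.02 to 1.87% and 3.76 to 4.03% of counts. Haemoglobin genes and Alas2 made up most of these blood and platelet sums. The platelet genes Pf4, Ppbp, Itga2b and Gp9 each lay at 4.06 CPM or less in every library. Fibroblast and endothelial markers summed to 55.6 to 92.4 CPM in the earlier and 146 to 225 CPM in the later run. Mast cell and granulocyte markers summed to 31.7 to 44.1 and 46.9 to 66.2 CPM. Macrophage sums overlapped between the runs, at 547 to 716 and 652.5 to 688 CPM. Among macrophage genes, Lyz2, Cd163 and F13a1 were higher in every later library and C1qa was lower.

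Per kilobase of exon, the libraries held most talin 1 and kindlin-3 transcript of these 10 genes. These levels are of whole libraries, which also held the keratinocyte transcripts given above, and the part of each cell type was not tested. Tln1 had 61.3 ± 7.90 CPM per kilobase (SD over 8 libraries), Fermt3 27.0 ± 3.05, Pxn 16.0 ± 2.56, Vcl 7.10 ± 0.53, Tns3 6.15 ± 0.90, Tns1 3.80 ± 0.85 and Fermt1 1.79 ± 0.36. The low end of the order was Tln2 with 0.48 ± 0.20, Fermt2 with 0.42 ± 0.46 and Ilk with 0.071 ± 0.053 CPM per kilobase. Each gene lay above the next of this order in all 8 libraries except at 2 places: Vcl was above Tns3, and Tln2 above Fermt2, in 7 of 8. The order of those 2 pairs was thus not the same in every library. The place of Ilk is uncertain too, since 89.7% of its exon bases are shared with other genes. Set against unshared exon bases alone, it had 81.3 counts per kilobase over all libraries, against 57.0 for Tln2 and 52.4 for Fermt2.

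**Figure D1:**
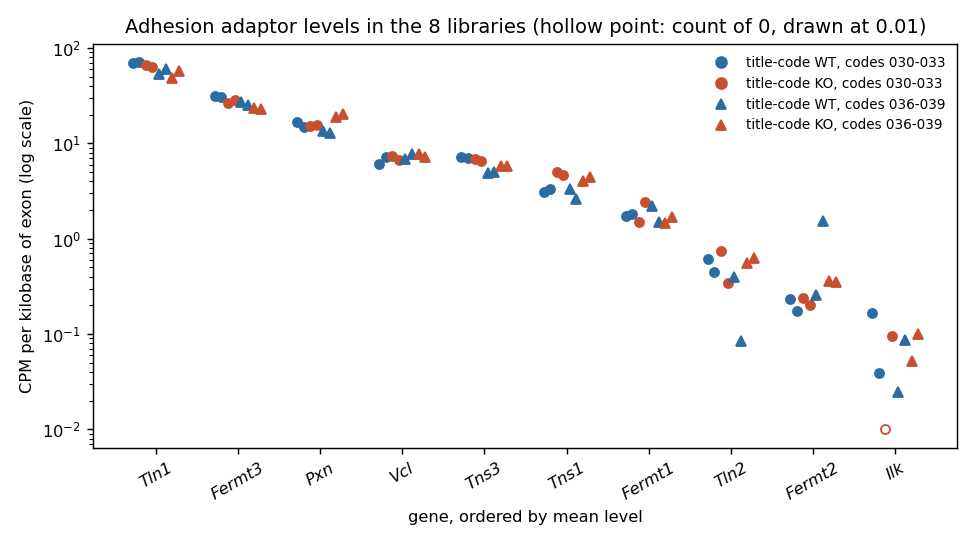
Level of each gene in each of the 8 libraries, as CPM per kilobase of exon on a log axis, with genes ordered by mean level, colour for the genotype in the title and shape for the code run. Tln1 sits at the top in every library and the 3 lowest genes, Tln2, Fermt2 and Ilk, spread most. The place of Ilk is uncertain, since most of its exon bases are shared with other genes.

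Tln1 (ENSMUSG00000028465, GRCm38 chromosome 4, 43531519 to 43562691, minus strand) encodes talin 1, the talin of leukocytes. It was measured at 684, 694, 653 and 615 CPM in RMN030 to RMN033, and at 527, 592, 472 and 567 CPM in RMN036 to RMN039. All 4 libraries of the earlier run were above all 4 of the later run, so the groups of the undisputed libraries and of the description reading did not overlap, while those of the title reading did. By description, the WT libraries held 662 ± 35.5 CPM of Tln1 and the KO libraries 540 ± 52.4 CPM (SD, n = 4 each). The log2 fold change was -0.25 ± 0.09 (SE), a 1.19-fold lower level, which did not pass the test over all genes (edgeR adjusted p = 0.202). By title it was -0.12 ± 0.11 (edgeR adjusted p = 0.998), with a 95% interval of -0.37 to 0.12, and within the runs it was -0.17 ± 0.11 in the earlier and -0.08 ± 0.11 in the later. In the undisputed libraries it was -0.36 ± 0.14 (edgeR adjusted p = 0.339), and Tln1 passed there only when RMN031 was left out (-0.38, edgeR adjusted p = 0.048), a fit in which RMN030 stands alone for WT and is assumed to vary as KO does.

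The blood, mitochondrial, fibroblast and endothelial, and mast cell levels given above differ between the 2 code runs, as Tln1 does. T cell markers were high only in RMN030 and RMN031. Without RMN030 and RMN031, the description reading gave -0.17 (edgeR adjusted p = 0.598) and the title reading 0.03, the opposite sign. The part of the other cell types and of the code run in the Tln1 levels was not tested. Among 8515 genes with at least 10 CPM on average, the 5 whose profile over the 8 libraries lay nearest to that of Tln1 (root mean square difference of centred log2 CPM) were Srebf2 at 0.041, Ncstn at 0.058, Kat6a at 0.063, Tex261 at 0.065 and Ehbp1l1 at 0.066, against an SD of 0.19 for Tln1. Srebf2 encodes a transcription factor of sterol synthesis and Ncstn a subunit of gamma-secretase. Srebf2 ran from 524 CPM in RMN030 down to 368 CPM in RMN038, the library in which Tln1 was also lowest.

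Tln2 (ENSMUSG00000052698, chromosome 9, 67217087 to 67559703, minus strand) encodes the talin paralogue best known from muscle and brain. Its level was 11.2, 8.30, 13.6 and 6.33 CPM in RMN030 to RMN033, and 7.33, 1.56, 10.1 and 11.5 CPM in RMN036 to RMN039. The lowest value came from 26 counts in RMN037, against 109 to 222 counts in the 7 others. WT and KO overlapped in all 3 groupings. The log2 fold change was 0.20 ± 0.34 in the undisputed libraries, 0.55 ± 0.45 by title and -0.33 ± 0.45 by description (edgeR adjusted p = 0.902, 0.998 and 0.848), and RMN037 moved it: without that library it was 0.20 by title and 0.02 by description.

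Tln2 made up a small share of talin transcripts everywhere, counted per kilobase of exon. It was 0.86%, 0.63%, 1.10% and 0.55% in RMN030 to RMN033, and 0.74%, 0.14%, 1.13% and 1.07% in RMN036 to RMN039. By title, it averaged 0.59 ± 0.32% over WT and 0.96 ± 0.28% over KO libraries (SD, n = 4 each; exact two-sided permutation p = 0.114, adjusted over 6 share tests 0.229). By description it was 0.79 ± 0.25% and 0.77 ± 0.45% (exact permutation p = 0.971). Talin transcripts were thus nearly all Tln1 in each library, under both readings.

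Fermt3 (ENSMUSG00000024965, chromosome 19, 6998958 to 7019469, minus strand) encodes kindlin-3, the kindlin of blood cells. It was at 182 and 175 CPM in RMN030 and RMN031 and at 153 and 166 in RMN032 and RMN033. In the later run it was at 156, 147, 137 and 132 CPM in RMN036 to RMN039. The 2 undisputed KO libraries had the lowest values of the 8 and the 2 undisputed WT libraries the highest. The undisputed groups did not overlap: WT libraries held 179 ± 4.70 CPM and KO libraries 134 ± 3.55 CPM (SD, n = 2 each). The log2 fold change there was -0.36 ± 0.14 (SE, edgeR adjusted p = 0.374). By title it was -0.18 ± 0.10 and by description -0.20 ± 0.10 (edgeR adjusted p = 0.998 and 0.417), and both groupings overlapped. Without RMN030 and RMN031, the 2 libraries with the most T cell transcripts, the values were -0.06 and -0.10. The part of those transcripts was not tested.

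Fermt1 (ENSMUSG00000027356, chromosome 2, 132904389 to 132945906, minus strand) encodes kindlin-1, the kindlin of epithelia and of keratinocytes in particular. Its level stayed between 8.24 CPM in RMN038 and 13.9 in RMN033, with 9.78 in RMN030, 10.4 in RMN031, 8.58 in RMN032, 12.6 in RMN036, 8.45 in RMN037 and 9.68 in RMN039. The summed keratinocyte markers were 19800, 17430, 22160 and 22350 CPM in RMN030 to RMN033, and 20040, 20630, 18070 and 18700 CPM in RMN036 to RMN039. Their part in the Fermt1 level was not tested. Every interval for Fermt1 included 0, with log2 fold changes of -0.13 ± 0.34, -0.03 ± 0.23 and -0.09 ± 0.23 in the undisputed, title and description groupings.

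Fermt2 (ENSMUSG00000037712, chromosome 14, 45458795 to 45530118, minus strand) encodes kindlin-2, the kindlin of fibroblasts, muscle and many adherent cells. It was near the floor of the data in 7 libraries, with 16, 17, 20 and 20 counts in RMN030 to RMN033, 20 in RMN036, 26 in RMN038 and 20 in RMN039. RMN037 alone had 133 counts, or 7.97 CPM against 0.92 to 1.85 CPM elsewhere. The description reading therefore gave 1.59 ± 0.58 on the log2 scale and the title reading -0.96 ± 0.68 (edgeR adjusted p = 0.234 and 0.998). Without RMN037 these became 0.64 and 0.34 (edgeR adjusted p = 0.703 for the former), so the sign by title rested on that library. The 13 fibroblast and endothelial markers summed to 168 CPM in RMN037 and to 146 to 225 CPM in the 3 other libraries of the later run. Of the list, Pdgfrb, Cdh5 and Kdr were at 0 in RMN037, while the endothelial genes Vwf, at 44.2 CPM against 9.48 to 24.4, and Pecam1, at 4.08 CPM against 0.20 to 3.20, were highest there (chosen after their values were seen). Their part in the Fermt2 level was not tested.

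Of kindlin transcripts per kilobase, Fermt3 made up 92.3 ± 2.20% in WT and 92.5 ± 1.05% in KO by title (SD, n = 4 each; exact permutation p = 0.886). By description the shares were 93.3 ± 1.18% and 91.4 ± 1.47% (exact permutation p = 0.114, adjusted over 6 tests 0.229). The lowest share, in RMN037, was also the library with the high Fermt2 count.

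**Figure D2:**
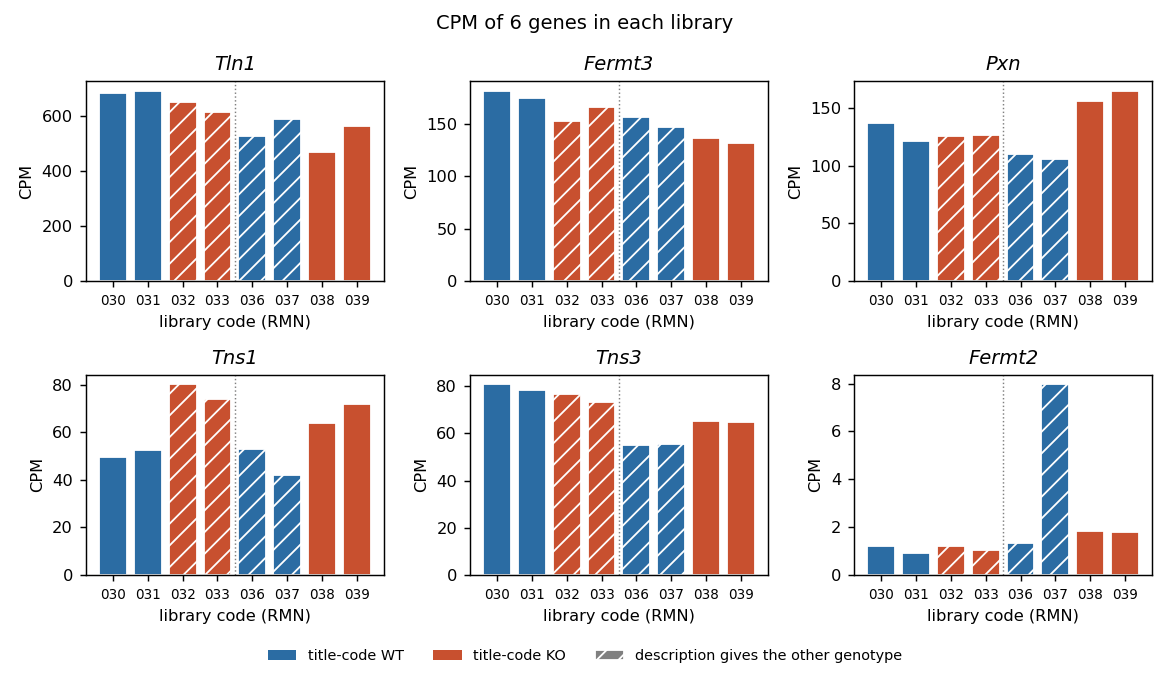
CPM of Tln1, Fermt3, Pxn, Tns1, Tns3 and Fermt2 in each library, as bars from 0, coloured by the genotype in the title and hatched where the description gives the other genotype, with a dotted line between the code runs. Tns1 is higher in the 4 title KO libraries in both runs, Pxn is high only in RMN038 and RMN039 within the later run, and Fermt2 stands out in RMN037.

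Vcl (ENSMUSG00000021823, chromosome 14, 20929398 to 21033676, plus strand) encodes vinculin, which binds talin under tension and reinforces its link to actin. It had the smallest SD of the 10 genes relative to its mean: 49.8, 59.3, 59.9 and 55.5 CPM in RMN030 to RMN033, and 56.5, 62.9, 63.2 and 58.5 CPM in RMN036 to RMN039. WT and KO overlapped in all 3 groupings, with log2 fold changes of 0.20 ± 0.19, 0.05 ± 0.12 and 0.15 ± 0.11 (edgeR adjusted p = 0.771, 0.998 and 0.639). The 95% interval by title ran from -0.20 to 0.30. Of its exon bases, 25.5% lie in exons of Ap3m1 on the opposite strand, and the strand setting of the counting is not given in the sources used here, so its level is uncertain to that extent.

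Pxn (ENSMUSG00000029528, chromosome 5, 115506676 to 115555987, plus strand) encodes paxillin, a scaffold that recruits focal adhesion kinase and vinculin. In the earlier run its levels were alike, at 137 and 121 CPM in RMN030 and RMN031 and 126 in both RMN032 and RMN033. In the later run it was at 110 and 106 CPM in RMN036 and RMN037, and at 156 and 165 CPM in RMN038 and RMN039. The 2 libraries that both labels call KO in the later run were thus the 2 highest of all 8, and the 2 in dispute there were the 2 lowest.

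By title, the Pxn contrast was -0.08 ± 0.12 within the earlier run and 0.60 ± 0.12 within the later run on the log2 scale (SE), or 108 ± 3.19 against 161 ± 6.34 CPM in the later (SD, n = 2 each). The later contrast, a 1.52-fold higher level, missed the threshold in edgeR (unadjusted p = 0.000555, adjusted p = 0.242) and passed it in DESeq2 (adjusted p = 0.00587). The difference between the runs, 0.69 ± 0.18, did not pass either in edgeR (unadjusted p = 0.00252, adjusted p = 0.347), and its 95% interval was 0.30 to 1.07. Over all 8 libraries the log2 fold change was 0.27 ± 0.14 by title and 0.12 ± 0.15 by description, and it was 0.36 ± 0.15 in the undisputed libraries (edgeR adjusted p = 0.998, 0.83 and 0.421). In the later run, blood and platelet markers summed to 584 and 866 CPM in the title WT libraries and to 1358 and 1280 CPM in the KO libraries. These sums, mostly of haemoglobin genes and Alas2, were thus higher in the libraries with more Pxn, and their part was not tested. T cell markers there lay within 45.2 to 59.8 CPM in all 4.

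Ilk (ENSMUSG00000030890, chromosome 7, 105736592 to 105742925, plus strand) encodes integrin-linked kinase, a pseudokinase that joins kindlin and parvin at the integrin tail. It had 6, 2, 0 and 5 counts in RMN030 to RMN033 and 1, 4, 2 and 3 in RMN036 to RMN039, and did not pass the low-count filter, so it was not tested. Its annotation makes the level uncertain: 89.7% of its 2744 exon bases lie in exons of Taf10 or Rrp8 on the opposite strand. Only 283 exon bases belong to no other gene. Set against those bases alone, the 23 counts of all libraries come to 81.3 per kilobase, against 1181 for Vcl, 57.0 for Tln2 and 52.4 for Fermt2 on the same measure. Taf10 and Rrp8 had 1370 and 2671 counts in all. How reads in shared exons were assigned is not given in the sources used here, and no absence of Ilk is read from these counts.

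Tns1 (ENSMUSG00000055322, chromosome 1, 73910231 to 74124449, minus strand) encodes tensin 1, which binds integrin tails and actin and marks mature fibrillar adhesions. It was measured at 49.6 CPM in RMN030 and 52.7 in RMN031, against 80.2 in RMN032 and 73.8 in RMN033. In the later run it was at 53.1 CPM in RMN036 and 41.8 in RMN037, against 63.9 in RMN038 and 71.9 in RMN039. By title, every KO library was above every WT library, at 72.4 ± 6.69 and 49.3 ± 5.23 CPM (SD, n = 4 each). By description the groups overlapped, since the 2 highest values then fell in WT and the lowest in KO.

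Tns1 ranked 10th of 14630 genes by p in the title reading, at 1.46-fold higher in KO (log2 fold change 0.55 ± 0.12, 95% interval 0.29 to 0.80), but missed the threshold (edgeR unadjusted p = 0.000546, adjusted p = 0.7). DESeq2 called it (adjusted p = 0.0146), limma voom did not (adjusted p = 0.697), and with the code run as a covariate edgeR gave 0.55 ± 0.12 (adjusted p = 0.312). The size was the same within each run: 0.54 ± 0.16 in the earlier and 0.54 ± 0.17 in the later, with a difference between runs of 0.00 ± 0.23 and a 95% interval from -0.50 to 0.50. The undisputed libraries gave 0.45 ± 0.19 (edgeR adjusted p = 0.391) and the description reading -0.11 ± 0.19 (edgeR adjusted p = 0.894).

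Markers of other cells were set beside Tns1. T cell markers separated RMN030 and RMN031 from the rest, and without these 2 libraries the title reading gave 0.60 (edgeR adjusted p = 0.549). Blood and platelet markers, of which 0 or 1 of 9 was at 0 in each library, had higher sums in the title KO libraries of both runs, as Tns1 was: 155 and 126 CPM in WT against 229 and 232 in KO in the earlier run, and 584 and 866 against 1358 and 1280 in the later. These sums were mostly haemoglobin genes and Alas2. Of the platelet genes, Itga2b and Gp9 overlapped between title WT and KO in both runs. Pf4 was lower in KO in the earlier run and higher in the later, and Ppbp was higher in KO in the earlier run only. Keratinocyte markers summed to 19800 and 17430 CPM in WT against 22160 and 22350 in KO in the earlier run, and to 20040 and 20630 against 18070 and 18700 in the later. Fibroblast and endothelial markers, of which 1 to 3 of 13 were at 0 in each library, summed to 92.4 and 74.9 CPM in the title WT and 55.6 and 60.9 CPM in the title KO libraries of the earlier run, where Tns1 was higher in KO. In the later run they summed to 162 and 168 CPM in WT and 225 and 146 CPM in KO. The part of these cells in the Tns1 levels was not tested. In bulk libraries, fewer cells of a type and less RNA per cell cannot be told apart.

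Tns3 (ENSMUSG00000020422, chromosome 11, 8431652 to 8664535, minus strand) encodes tensin 3, a tensin of the same domain layout as tensin 1. Its levels followed the code run: 80.8, 78.4, 76.5 and 73.5 CPM in RMN030 to RMN033, and 55.1, 55.6, 65.1 and 65.0 CPM in RMN036 to RMN039. All 4 earlier libraries were above all 4 later ones, so the undisputed and description groups did not overlap and the title groups did. By description, WT libraries held 77.3 ± 3.08 CPM and KO libraries 60.2 ± 5.57 CPM (SD, n = 4 each). The log2 fold change of -0.32 ± 0.11 did not pass (edgeR adjusted p = 0.205), and for the undisputed libraries it was -0.25 ± 0.17 (edgeR adjusted p = 0.671). By title it was 0.05 ± 0.14 (edgeR adjusted p = 0.998), with -0.13 ± 0.13 within the earlier run and 0.26 ± 0.14 within the later.

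The balance of the 2 tensins, as the Tns3 share of their transcripts per kilobase, was lower in the title KO libraries. It averaged 65.8 ± 4.44% over WT and 58.1 ± 1.27% over KO libraries (SD, n = 4 each), with no overlap. That gave an exact two-sided permutation p = 0.0286, the smallest that 4 against 4 can give, and it did not pass when adjusted over the 6 share tests (0.171). Within the earlier run it averaged 69.0 ± 1.40% over WT and 58.3 ± 0.72% over KO libraries, and within the later run 62.7 ± 4.09% and 57.9 ± 2.04% (SD, n = 2 each). By description it was 63.6 ± 6.27% and 60.3 ± 3.83%, and the groups overlapped (exact permutation p = 0.343, adjusted 0.514).

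**Figure D3:**
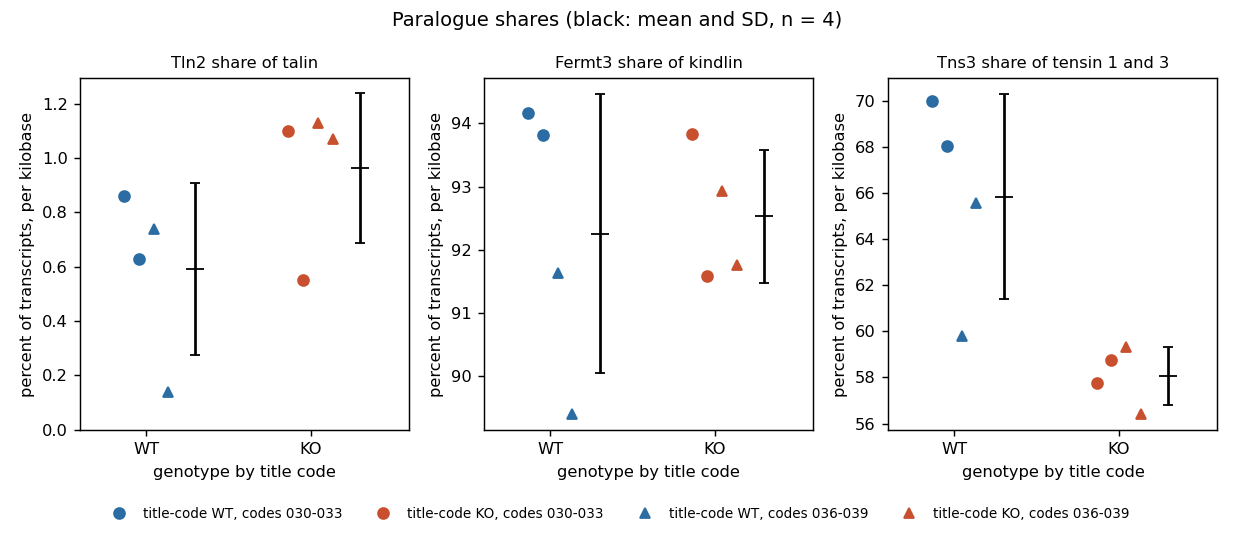
Share of Tln2 among talin, of Fermt3 among kindlin and of Tns3 among tensin 1 and 3 transcripts per kilobase of exon, in percent, by the genotype in the title, with points for libraries (circles for the earlier and triangles for the later code run) and black bars for mean and SD of 4 libraries. The vertical axes of the kindlin and tensin panels do not start at 0; only the tensin share separates the groups, at 65.8% in WT and 58.1% in KO.

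Across the 3 groupings, edgeR called 0 of the 9 genes that passed the low-count filter. In the undisputed libraries 117 of 14727 genes (0.794%) were called, and Tln1, Fermt3, Pxn and Tns1, 4 of the 9, had an unadjusted p under 0.05, as did 1657 of all genes (11.3%). The title reading called 0 of 14630 genes (0%) in edgeR, with 672 (4.59%) at an unadjusted p under 0.05, 19 called by DESeq2 and 0 by limma voom. Tns1 was the 1 gene of the 9 at an unadjusted p under 0.05 there, and the 1 called by DESeq2. The description reading called 296 of 14630 genes (2.02%), with Tln1, Fermt2 and Tns3, 3 of the 9, at an unadjusted p under 0.05, as were 1849 of all genes (12.6%). DESeq2 and limma voom called 0 of the 9 in that reading and in the undisputed libraries.

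Inside the runs the counts were as low. Of 16146 genes, the title contrast called 30 (0.186%) within the earlier run, 0 (0%) within the later run and, for the difference between runs, 3 (0.0186%), and 0 of the 9 genes in each. Within the later run 1264 genes (7.83%) had an edgeR unadjusted p under 0.05, Pxn and Tns1, 2 of the 9, among them. DESeq2 called 95 of 16146 there, of which Pxn was 1. Within the earlier run 1083 genes (6.71%) had an edgeR unadjusted p under 0.05, with Tns1, 1 of the 9, among them. For the difference between runs it was 1281 genes (7.93%), with Pxn, 1 of the 9, among them. With the code run as a covariate, edgeR called 0 of 14630 genes (0%) by title, with 900 (6.15%) at an unadjusted p under 0.05, Tns1, 1 of the 9, among them.

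Groups that do not overlap were common in the smallest design. In the undisputed libraries 7 of the 9 genes did not overlap between WT and KO in CPM, 3 higher in KO (Fermt2, Pxn, Tns1) and 4 lower (Tln1, Fermt1, Fermt3, Tns3), against 42.1% of all tested genes. By title 1 of 9, Tns1, did not overlap, against 2.94% of all genes. By description 3 of 9, Tln1, Tns3 and Fermt2, did not overlap, against 8.82% of all genes. Fermt2 had 20 counts both in RMN032, the highest of these WT libraries (1.226 CPM), and in RMN036, the lowest KO library (1.345 CPM). Its separation thus rested on library totals. In the undisputed libraries Fermt1 separated on 9.775 CPM in RMN030 against 9.682 in RMN039 (edgeR unadjusted p = 0.716). Whether these counts of genes exceed the shares of all genes was not tested.

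**Figure D4:**
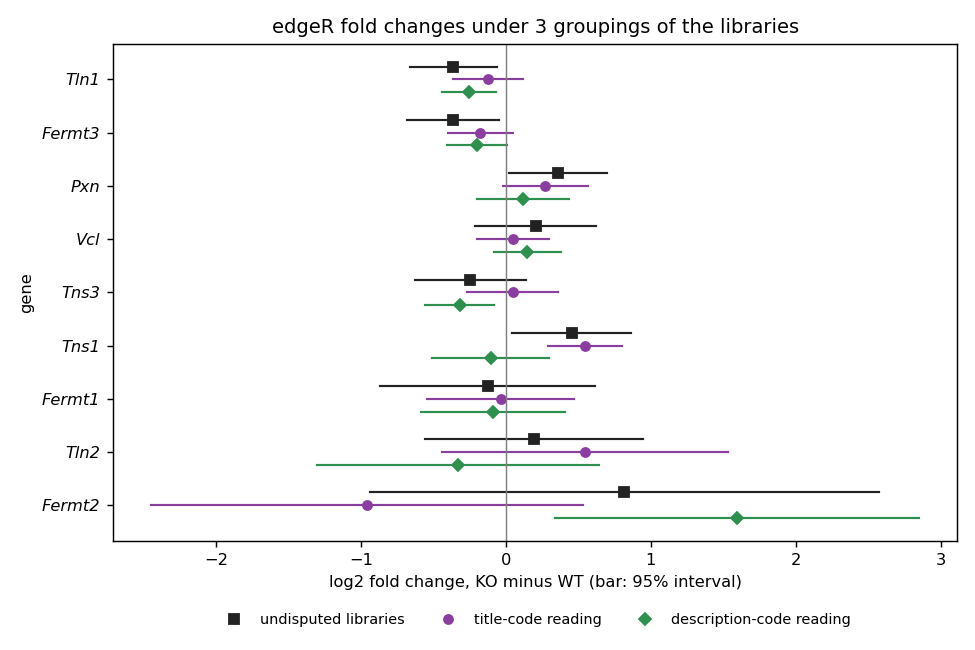
log2 fold change of each tested gene, KO minus WT, from edgeR in the undisputed libraries (squares), the title reading (circles) and the description reading (diamonds), with bars for 95% intervals. Tns1 lies at 0.55 by title and -0.11 by description, Fermt2 changes sign between the 2 readings, and none of the points passed the threshold after adjustment.

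Talin is switched on by the small GTPase Rap1 and its effectors and held off by competitors for the integrin tail. Of 26 such genes, 25 were tested, and edgeR called 1 by description, against 2.02% of all genes, and 0 in the undisputed and title groupings. At an edgeR unadjusted p under 0.05 were 3, 1 and 5 in the undisputed, title and description groupings, beside 11.3%, 4.59% and 12.6% of all genes. The called gene was Rassf5, which encodes the Rap1 effector RAPL, known for its part in leukocyte integrin adhesion. Rassf5 was at 291, 311, 376 and 353 CPM in RMN030 to RMN033 and at 218, 209, 184 and 217 CPM in RMN036 to RMN039. Every earlier library lay above every later one, and by description Rassf5 fell by 0.64 on the log2 scale (SE 0.09, 1.56-fold, edgeR adjusted p = 0.0035). The list's median log2 fold change was -0.14 by description, -0.07 by title and -0.14 in the undisputed libraries, where the median of all tested genes was -0.01, 0.00 and 0.00. The list mixes genes that switch talin on and off, so its median gives no direction for talin activity. Rap1b, which encodes a Rap1 GTPase, was higher by description (log2 fold change 0.36 ± 0.11, edgeR adjusted p = 0.153). Sipa1, a GTPase-activating protein that turns Rap1 off, had the smallest p of the list in the undisputed libraries, at 65.8 and 76.6 CPM in WT and 37.0 and 35.1 in KO (log2 fold change -0.93 ± 0.20, edgeR adjusted p = 0.0582). It passed there with a 1 CPM filter (edgeR adjusted p = 0.0412), without any (0.00223), in limma voom (adjusted p = 0.0359) and in DESeq2 (adjusted p = 0.00174). Of all genes, these settings called 161 of 14053, 440 of 23183, 148 of 14727 and 305 of 14727. The disputed RMN032, RMN033, RMN036 and RMN037 held 54.05, 66.1, 55.3 and 40.4 CPM of Sipa1. The 2 undisputed WT libraries are also of the earlier run and have the most T cell transcripts, and the part of either was not tested. In the undisputed libraries Rassf5 also passed without a filter (edgeR adjusted p = 0.0291) and with DESeq2 (0.0252), and Sipa1 passed by description with both (0.0478 and 0.0117). Of all genes, these called 339 of 25247 and 660 of 14630 by description. Kank1 had the smallest p of this list by title (log2 fold change 0.473 ± 0.199, edgeR adjusted p = 0.998). Within the later run Kank1 was at 0.804 ± 0.189 (edgeR adjusted p = 0.323).

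Of the 10 listed partners of kindlin and integrin-linked kinase, 8 were tested and edgeR called 0 in each grouping, with 2, 2 and 0 at an unadjusted p under 0.05 in the undisputed, title and description groupings (11.3%, 4.59% and 12.6% of all genes). Parva, which encodes the actin-binding alpha-parvin, was at 6.34 and 10.3 CPM in RMN030 and RMN031, at 23.1 and 19.3 in RMN032 and RMN033, and between 13.1 and 18.8 in the later run. Its log2 fold change by title was 0.82 ± 0.24 (edgeR adjusted p = 0.998), from 1.30 ± 0.28 within the earlier and 0.42 ± 0.27 within the later run. Parvg, the parvin of leukocytes, was at 137 to 188 CPM, with -0.25 ± 0.09 by title (edgeR adjusted p = 0.998).

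Among the 31 focal adhesion kinases and scaffolds, all tested, edgeR called 0 in the undisputed, title and description groupings, with 2, 4 and 6 at an unadjusted p under 0.05, beside 11.3%, 4.59% and 12.6% of all genes. In the undisputed libraries, DESeq2 called Crk and Nedd9, both adaptors of focal adhesion signalling, higher in KO (adjusted p = 0.0198 and 0.0313), as did edgeR without a filter (0.0224 and 0.00598). By description DESeq2 called Elmo2 lower (adjusted p = 0.0419). Their median log2 fold change was 0.06, 0.03 and -0.01. Vav1, an exchange factor for Rac in leukocytes, had the smallest p by title, with 103 to 113 CPM in the 4 WT and 75.9 to 94.6 CPM in the 4 KO libraries (log2 fold change -0.32 ± 0.11, edgeR adjusted p = 0.998).

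Of 20 genes that link focal adhesions to actin, all tested, edgeR called 2 by description, both higher in KO, against 2.02% of all genes, and 0 in the other 2 groupings. At an edgeR unadjusted p under 0.05 were 3, 0 and 4 in the undisputed, title and description groupings, beside 11.3%, 4.59% and 12.6% of all genes. Csrp1, which encodes a LIM-domain protein of actin bundles, was at 102 to 115 CPM in the earlier and 156 to 173 CPM in the later run (log2 fold change 0.63 ± 0.09, edgeR adjusted p = 0.00267). In the undisputed libraries Csrp1 passed with DESeq2 (adjusted p = 0.00529) and with edgeR without a filter (0.0165), at 0.65 ± 0.15 and an adjusted p of 0.0893 in edgeR with the filter. Of all genes, DESeq2 called 305 of 14727 there and edgeR without a filter 440 of 23183. Tes, which encodes testin, a LIM protein of adhesion sites, was at 73.4 to 85.5 and 105 to 111 CPM (0.49 ± 0.10, edgeR adjusted p = 0.0195). DESeq2 also called Capn2, a calpain gene, higher by description (adjusted p = 0.00982), beside 660 of 14630 genes called in all. Pdlim1 had the smallest p of this list by title (log2 fold change 0.284 ± 0.139, edgeR adjusted p = 0.998). Tes lost its call without RMN031, RMN032, RMN036, RMN038 or RMN039, each left out alone, where its log2 fold change was 0.45 to 0.50. Rassf5, Csrp1 and Tes each separate the code runs completely, and by description genotype and code run cannot be told apart. The blood, mitochondrial, fibroblast and endothelial, and mast cell levels that differ between the runs were not tested for their part in them.

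Integrin subunits, the receptors that talin and kindlin bind, gave 1 edgeR call of 21 tested in the undisputed libraries (0.794% of all genes). By title 0 of 20 were called (0% of all genes) and by description 1 of 20 (2.02% of all genes). At an edgeR unadjusted p under 0.05 were 5, 4 and 4 in the undisputed, title and description groupings, beside 11.3%, 4.59% and 12.6% of all genes. Itgal, the alpha subunit of the leukocyte integrin LFA-1, was at 14.3 and 14.6 CPM in RMN030 and RMN031 and at 0.11 to 1.99 CPM in the 6 others. It was called lower in KO in the undisputed libraries (log2 fold change -3.10 ± 0.42, edgeR adjusted p = 0.00468) and within the earlier run (-4.80 ± 0.78, edgeR adjusted p = 0.0479, and 0.0505 with RLE size factors). The 2 libraries with the most Itgal are the 2 with the highest T cell marker sums, and the part of T cells was not tested. Itgb8, which encodes the beta subunit of an integrin that activates latent TGF-beta, was at 0.61 to 1.48 CPM in the earlier and 1.56 to 6.15 CPM in the later run. By description it was called higher (log2 fold change 2.11 ± 0.49, edgeR adjusted p = 0.0441), but not with limma voom (adjusted p = 0.101), nor without any 1 of 7 libraries, with RMN038 the exception, where the log2 fold change was 1.85 to 2.38. DESeq2 also called Itga5, the fibronectin receptor alpha subunit, higher by description (adjusted p = 0.032), beside 660 of 14630 genes called in all. Itga8 had the smallest p of the integrin subunits by title (log2 fold change -1.135 ± 0.308, edgeR adjusted p = 0.971). Within the later run Itga8 was at -1.695 ± 0.333 (edgeR adjusted p = 0.242).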

How the data were processed

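The deposited table holds raw read counts per gene for 8 libraries, and its values show no normalization by the authors. Tools named in the submitters' processing notes were STAR (2.5.2b) and featureCounts (1.5.0), with build GRCm38 (mm10). The annotation release, strand setting and treatment of read pairs are not given in the sources used here. Of counts from 1 to 20, 60.1% were even, so mates may have been counted apart. Symbols were matched for 25080 of 25247 Ensembl identifiers, and coordinates and exon lengths were read from GENCODE for GRCm38. CPM are counts per 1000000 counts of a library.

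Fits used edgeR 4.0.16 in R 4.3.3 (filterByExpr, TMM, robust quasi-likelihood F-tests, two-sided, Benjamini-Hochberg over all genes tested, threshold 0.05), with SE from the F statistic and 95% intervals. Within-run contrasts came from 1 fit with 4 cells of 2 libraries. Shares were compared with exact permutation tests. This edgeR fit was first tested on simulated data. Alternatives were a 1 CPM filter or none, RLE size factors, limma 3.58.1 voom, DESeq2 1.42.0, leaving out each library, a replicate block, the code run as a covariate and other length scalings. Fits without RMN030 and RMN031 were added after seeing the data. The members and lists were chosen with earlier results of these data known. Named were all members, list genes called by edgeR and some of those of smallest p in each list, not the ones of every fit. Of the deposited columns, 0 were left unused.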

Additional observations from a re-analysis of the deposited data

Results flagged for a closer look

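Within groups of 4 libraries, 4 of the 52 groups examined held 1 library far from the other 3, where about 2.6 are flagged by chance. Fermt2 was at 7.97 CPM in RMN037, against 0.92 to 1.35 CPM in the other title WT libraries and 1.35 to 1.85 CPM in the other description KO libraries, so the same library gave both flags. The Tln2 share of talin transcripts was 0.546% in RMN033, against 1.07 to 1.13% in the other title KO libraries. The Fermt3 share of kindlin transcripts was 91.6% in RMN033, against 93.8 to 94.2% in the other description WT libraries.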

How the results depend on the processing

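edgeR with RLE size factors or another filter, and limma voom called 0 of the 9 genes in each of the 3 groupings, and the replicate block, or leaving out any 1 library, called 0 by title and by description. The count became 1 in the undisputed libraries without RMN031 (Tln1; 0 to 1 over the 4 left out in turn), by title with DESeq2 (Tns1) and within the later run with DESeq2 (Pxn). The replicate numbers did not clearly pair the libraries (correlations of same-numbered deviations 0.058 to 0.111 by title and -0.003 to 0.026 by description). By title, replicates 3 and 4, at 0.106 and 0.111, passed the limit of 0.1 set for pairing. Replicate 3 alone correlated most with its own number, in both readings. With the replicate block, all-gene calls were 0 by title and 174 by description, against 296. Over single libraries left out, log2 fold changes reached both signs for Tln2 in the undisputed libraries (-0.033 to 0.439), by title for Vcl (-0.004 to 0.093), Fermt1 (-0.220 to 0.078), Tns3 (-0.042 to 0.155) and Fermt2 (-1.258 to 0.343), and by description for Tns1 (-0.235 to 0.025), Fermt1 (-0.234 to 0.055), Tln2 (-0.602 to 0.017) and Pxn (-0.007 to 0.218). Share differences did so for Tln2 by description (-0.136 to 0.193 points) and Fermt3 by title (-0.676 to 0.909 points). Without RMN030 and RMN031, Tln1 was 0.032 and Vcl -0.020 by title, and Parvg 0.067 by description. The Tns1 difference between runs was -0.006 with RLE size factors and with DESeq2. The cause of these changes was not tested.

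Calls over the 5 pathway lists, 1 in the undisputed libraries, became 6 without a filter, 2 at 1 CPM, 6 with DESeq2, 2 with limma voom and 1 to 10 over single libraries left out. By description the 4 calls became 8 with DESeq2, 2 with the replicate block and 2 to 4 over single libraries. Within the earlier run the 1 call became 0 with RLE size factors and 3 with DESeq2, and DESeq2 gave 2 within the later run and 2 for the difference between runs, against 0. Of all genes, the 117 undisputed calls became 440 without a filter, 305 with DESeq2 and 263 to 629 over single libraries; the 296 by description became 660 with DESeq2 and 140 to 219 over single libraries; and DESeq2 called 19 by title against 0, and 143, 95 and 97 in the within-run contrasts and their difference, against 30, 0 and 3. By title, 1 gene was called without a filter. Depth limits Ilk, Fermt2 and Tln2, with 23, 272 and 1046 counts over all libraries.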
